A study of Mus musculus with 24 samples.

Results

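The comparison described here set βTC3 cells that had switched on the miR-23b cluster against control cells under the same drug. Its 6 libraries, of 24 in the series, were chosen by their labels. The 3 libraries of the miR-23b line came from cells with the plasmid PB-31 carrying the miR-23b cluster, kept for 7 d in DMEM with doxycycline (DOX) at 2 µg/ml. The 3 control libraries came from cells with the plasmid PB-31 alone, kept for 7 d with the same dose of DOX. DOX is the drug that induces expression from the plasmid, so both sides had the plasmid and the drug, and the cluster is what the labels give as the difference. βTC3 is a mouse insulinoma line from the Rip-Tag2 model, in which the insulin promoter drives SV40 large T antigen in beta cells. The series also holds both lines after 7 d without DOX and a PB-31 miR-137 line after 7 d of DOX, which are used below as side values. PolyA RNA was read with a stranded kit. The labels do not say whether each line is a clone or a pool, and with 1 line a side, the cluster and other features of its line cannot be told apart with DOX alone. Cells were plated in triplicate, and whether libraries came from separate passages is not given, so p-values measure only the spread between these libraries, which may be technical.

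The following miRNAs are cut from the transcript of the cluster: miR-23b, miR-27b and miR-24. A mature miRNA guides Argonaute to messenger RNAs, mainly through pairing of its seed with sites in 3′ untranslated regions (UTRs), and the paired messages are translated less and decay faster. Members of the 3 families are known as regulators of lipid metabolism, the cell cycle and NOTCH and TGF-beta signalling in other tissues. In the RefSeq sequences below (GRCm38.p6), the seed, bases 2 to 8 from the 5′ end, is in capitals. miR-23a-3p, from the paralogous cluster on chromosome 8, stands for the miR-23 family, whose members share its seed. miR-27a-3p and miR-27b-3p share the seed UCACAGU, and miR-24-3p comes from both clusters. miR-137-3p, induced in another line of the series, has an unrelated seed and serves as a comparison.
mmu-miR-23a-3p: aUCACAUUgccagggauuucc
mmu-miR-27b-3p: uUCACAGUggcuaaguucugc
mmu-miR-27a-3p: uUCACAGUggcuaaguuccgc
mmu-miR-24-3p: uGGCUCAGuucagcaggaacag
mmu-miR-137-3p: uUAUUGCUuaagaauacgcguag

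The miR-23b libraries held 15882208 to 22287337 reads counted in genes and the control libraries 19416477 to 20775602. Genes with at least 1 read numbered 19383 to 20336 in the miR-23b libraries and 20898 to 21066 in the control libraries. The other 21 libraries of the series, the miR-23b ones included, all stayed at or below 20336, so the control libraries with DOX stood apart in this measure. Reads aligned to more than 1 place, which are not counted in genes, made up 25.4% to 25.8% of reads in the miR-23b libraries and 26.6% to 27.3% in the control libraries. What these differences contribute to the results was not tested. Beta cell markers were all detected, at a summed 15961 to 16559 CPM (counts scaled to library size) in the miR-23b line and 17938 to 18742 CPM in the control line. Of these 11 markers 2 were higher and 7 lower (63.6%) in the miR-23b line, beside 26.3% lower over all genes tested. Markers of leukocytes summed to 16.8 to 17.6 CPM in the miR-23b line and 13.2 to 15.2 CPM in the control line. Endothelial markers summed to 10.5 to 10.8 CPM in the miR-23b line and 9.22 to 9.62 CPM in the control line, and those of fibroblasts and exocrine cells stayed below 5 CPM in every library. Coro1a and Esam made up most of the leukocyte and endothelial sums, and Cd3e, Prss1, Prss2 and Amy2a5 were among the markers with 0 reads in all 6 libraries.

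The loci of the cluster were read abundantly in the miR-23b line and almost not at all in the control line. Mir23b (ENSMUSG00000065599, GRCm38 chromosome 13, 63300484 to 63300557, plus strand) gave 56.2, 49.8 and 53.5 unadjusted CPM in the miR-23b line, against 1 read in all 3 control libraries together. Mir27b (ENSMUSG00000065475, 63300712 to 63300784) gave 79.6, 90.1 and 86.8 unadjusted CPM in the miR-23b line and 3 reads over the control line. Mir24-1 (ENSMUSG00000105904, 63301208 to 63301275) gave 113, 96.6 and 102 unadjusted CPM in the miR-23b line and 4 reads over the control line. All 3 loci were thus separated without overlap, and the ratio of rates was 1710 for Mir27b (95% exact interval 585 to 8295) and 1561 for Mir24-1 (609 to 5730), counting error only. With a single control read, the ratio for Mir23b had an interval from 572 to 125910. Without DOX, the miR-23b line had 27 Mir27b reads and the control line 2, a ratio of 13.5 (3.40 to 117), and 35 and 3 Mir24-1 reads, a ratio of 11.7 (3.69 to 59.4). For Mir23b without DOX the reads were 9 and 2, and the interval of the ratio of 4.51 includes 1 (0.933 to 42.9). Mir3074-1, annotated on the minus strand over Mir24-1 (63301199 to 63301283), went another way, with 27 reads in the miR-23b line and 3 in the control line with DOX, but 40 and 0 without it. The host gene 2010111I01Rik, in which the cluster lies, averaged 18.5 ± 0.445 unadjusted CPM (SD, n = 3 here and below) in the miR-23b line and 20.4 ± 1.29 in the control line, and did not pass the test (adjusted p = 0.0926, edgeR's quasi-likelihood test with Benjamini-Hochberg adjustment). Mir23a, Mir27a and Mir24-2 of the paralogous cluster had 1 read in the miR-23b line and 0 in the control line. Reads of the inserted copy and of the cell's own locus cannot be told apart, and polyA libraries do not measure the mature miRNAs.

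The transcriptomes of the miR-23b and control lines differed widely. Of 14866 genes tested, 7764 (52.2%) passed an adjusted p below 0.05, with 3847 (25.9%) higher and 3917 (26.3%) lower in the miR-23b line. Among these, 222 were higher and 403 lower by more than 1 on the log2 scale, and the median size of a called change was 0.299 on the log2 scale. The 2 directions were thus close in number, but the larger changes lay mainly downward. With limma on the deposited TPM, where test and measure both changed, 63.8% of calls were higher, with 4704 higher and 2666 lower, against 49.5% in the counts. With scaling alone changed, the share was 46.1% (upper quartile) and 49.2% (DESeq2 size factors). In bulk RNA, fewer cells of a type and less RNA per cell cannot be told apart.

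Without DOX the same lines differed far less. Of the same 14866 genes, 947 (6.37%) passed between the miR-23b and control lines, 533 (3.59%) higher and 414 (2.78%) lower in the miR-23b line. By unadjusted p below 0.05 the counts were 8459 with DOX and 3037 without. Past 1 on the log2 scale lay 11 higher and 9 lower genes without DOX, and the median size over all genes tested was 0.194 with DOX and 0.0771 without. Both contrasts called 442 genes in the same direction, which is 5.69% of those called with DOX and 46.7% of those called without. A further 196 genes, 20.7% of those called without DOX, passed in opposite directions. These 2 contrasts share no library. The excess of the difference with DOX over that without was not tested per gene, since this comparison carries no interaction term. The plot of log2 fold changes with and without DOX shows the wider spread along the DOX axis.

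**Figure D1:**
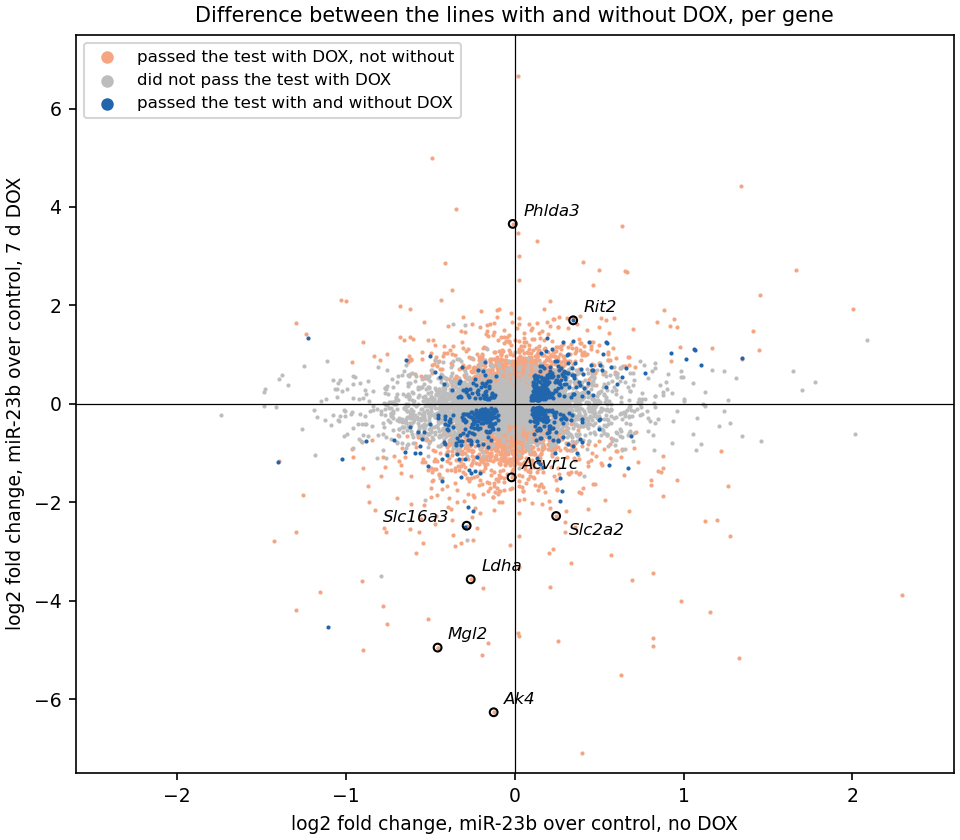
Each point is a gene tested in both contrasts, with the log2 fold change of the miR-23b line over the control line after 7 d of DOX on the vertical axis and after 7 d without DOX on the horizontal axis; the loci of the cluster are left out. The spread is wider with DOX (median size 0.194) than without (0.0771), and colour marks which contrast a gene passed.

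Among the genes with the largest falls were enzymes and transporters of glucose use and genes known to be induced by low oxygen. Ak4, a mitochondrial adenylate kinase, (ENSMUSG00000028527, chromosome 4, 101419277 to 101466995, plus strand, GRCm38) measured 0.0913, 0.567 and 0.308 CPM in the miR-23b line, against 20.3, 26.4 and 30.5 CPM in the control line. No miR-23b library reached 1 CPM of Ak4, while the lowest control library held 20.3 CPM. The log2 fold change of Ak4 was -6.27 ± 0.29 (SE; adjusted p = 3.19e-20, edgeR), and the miR-137 line with DOX held 36.3 ± 6.72 CPM. Ldha, lactate dehydrogenase A, which interconverts pyruvate and lactate, (ENSMUSG00000063229, chromosome 7, 46841475 to 46855627, plus strand) measured 45.7, 46.2 and 47.6 CPM in the miR-23b line, against 409.6, 604 and 637 CPM in the control line. The 3 miR-23b libraries lay close together, and control replicate 1 was the lowest of its group for Ldha but still far above them. The Ldha change was -3.57 ± 0.14 (adjusted p = 2.38e-22), against -0.26 ± 0.11 (adjusted p = 0.179) between the same lines without DOX. Slc16a3, the lactate exporter MCT4, measured 27.5, 27.4 and 32.8 CPM in the miR-23b line, against 129.7, 176 and 179 CPM in the control line (-2.48 ± 0.12, adjusted p = 2.1e-19). Bnip3, a mitochondrial protein of mitophagy, measured 21.8, 20.9 and 20.2 CPM in the miR-23b line, against 86.9, 111 and 111 CPM in the control line (-2.29 ± 0.10). Slc2a2, the glucose transporter GLUT2 of beta cells, measured 1.83, 1.57 and 2.16 CPM in the miR-23b line, against 8.46, 8.94 and 9.20 CPM in the control line (-2.28 ± 0.13, adjusted p = 2e-17). The rule by which the largest falls and rises were named, and the genes with seed matches below, required that the lines not overlap. Of the 7764 genes called with DOX, 7210 had no overlap.

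The other 7 of the 12 largest falls covered varied functions. Mgl2, a lectin better known from macrophages, averaged 0.240 ± 0.0482 CPM in the miR-23b line and 7.80 ± 0.435 CPM in the control line (-4.96 ± 0.22), and 1.23 ± 0.280 CPM in the miR-137 line with DOX. Mgst1, a glutathione transferase kept low in normal beta cells, averaged 1.77 ± 0.286 CPM in the miR-23b line and 9.91 ± 0.713 CPM in the control line (-2.51 ± 0.15). Oas2, an interferon-induced oligoadenylate synthetase, averaged 1.41 ± 0.151 CPM in the miR-23b line and 7.38 ± 0.849 CPM in the control line (-2.37 ± 0.17). Mgl2, at 0.274, 0.262 and 0.185 CPM in the miR-23b libraries, rested on few reads there, as did Ak4, so the sizes of their falls are less certain. Mgst1 and Oas2 were low but measurable in the miR-23b line. Ankrd37, a hypoxia-inducible ankyrin repeat gene, averaged 2.80 ± 0.309 CPM in the miR-23b line and 12.7 ± 1.97 CPM in the control line (-2.17 ± 0.16). Mif, a cytokine, averaged 18.6 ± 0.975 CPM in the miR-23b line and 80.7 ± 14.8 CPM in the control line (-2.11 ± 0.12), and its near-identical copies make this value less certain. Prelid2 averaged 3.45 ± 0.319 CPM in the miR-23b line and 15.7 ± 1.203 CPM in the control line (-2.17 ± 0.12). Blnk, an adaptor of B cell receptor signalling, averaged 2.94 ± 0.271 CPM in the miR-23b line and 12.7 ± 0.446 CPM in the control line (-2.10 ± 0.13).

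The miR-137 line with DOX, set against the same control libraries, was also lower for some of the 12. Over all genes tested, 4063 (27.3%) passed between the miR-137 line and the control line, 2183 (14.7%) higher and 1880 (12.6%) lower in the miR-137 line. Mgl2 differed there by -2.64 (adjusted p = 2.63e-16, edgeR), Oas2 by -1.46 (adjusted p = 3.97e-10), Blnk by -0.72 (adjusted p = 1.8e-06) and Mgst1 by -0.51 (adjusted p = 0.000355). Ak4 was higher in the miR-137 line, by 0.49 (adjusted p = 0.0013), and the other 7 did not pass the test there, with differences between -0.17 and 0.23. For Mgl2 and Ankrd37 the control line with DOX was itself above both lines without DOX. Without DOX, Mgl2 averaged 0.943 ± 0.213 CPM in the miR-23b line and 1.28 ± 0.264 CPM in the control line, and Ankrd37 4.77 ± 0.744 CPM in the miR-23b line and 5.12 ± 0.359 CPM in the control line.

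**Figure D2:**
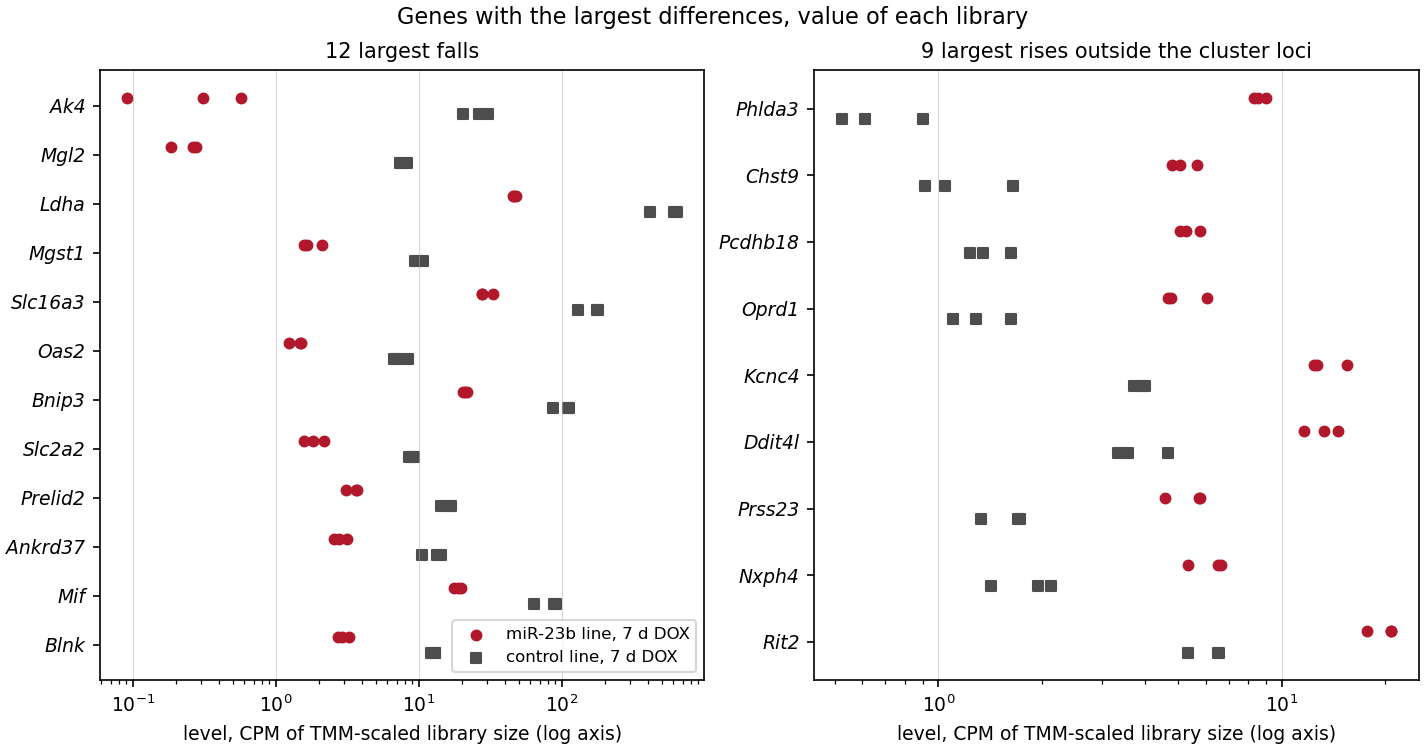
CPM on a log axis in each of the 3 miR-23b libraries and 3 control libraries, both with DOX, for the 12 largest falls (left) and the 9 largest rises outside the cluster (right). Ldha, for example, lies at 45.7 to 47.6 CPM in the miR-23b line and 409.6 to 637 CPM in the control line. Genes were named only where the lines do not overlap.

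Outside the cluster, the largest rise was that of Phlda3, a p53 target that represses AKT (ENSMUSG00000041801, chromosome 1, 135766119 to 135769136, plus strand). It measured 8.31, 8.54 and 9.01 CPM in the miR-23b line, against 0.902, 0.523 and 0.610 CPM in the control line (3.66 ± 0.17, adjusted p = 7.92e-20), and 1.54 ± 0.258 CPM in the miR-137 line with DOX. Phlda3 was thus several-fold higher in the miR-23b line with DOX, while the lines did not pass the test without DOX (-0.012 ± 0.32, adjusted p = 0.99, edgeR). Ddit4l, an inhibitor of mTOR signalling, averaged 13.2 ± 1.47 CPM in the miR-23b line and 3.85 ± 0.711 CPM in the control line (1.77 ± 0.12). Kcnc4, a voltage-gated potassium channel, averaged 13.5 ± 1.71 CPM in the miR-23b line and 3.89 ± 0.155 CPM in the control line (1.78 ± 0.11). Rit2, a neuronal small GTPase, averaged 19.8 ± 1.76 CPM in the miR-23b line and 6.14 ± 0.695 CPM in the control line (1.70 ± 0.087). Of the named rises these had the higher levels, and the rest stayed at or below 6.18 CPM on average. Oprd1, the delta opioid receptor, averaged 5.15 ± 0.774 CPM in the miR-23b line and 1.34 ± 0.266 CPM in the control line (1.92 ± 0.18). Nxph4, a neurexophilin, averaged 6.18 ± 0.728 CPM in the miR-23b line and 1.84 ± 0.368 CPM in the control line (1.75 ± 0.16). Chst9, a carbohydrate sulfotransferase, averaged 5.17 ± 0.445 CPM in the miR-23b line and 1.204 ± 0.394 CPM in the control line (2.10 ± 0.18). Prss23, a secreted serine protease, rose by 1.75 ± 0.17 on the log2 scale and Pcdhb18, a clustered protocadherin, by 1.92 ± 0.16.

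Several of these rises were also seen in the miR-137 line with DOX, over the same control libraries. Ddit4l held 9.52 ± 0.944 CPM there (1.31, adjusted p = 4.32e-10, edgeR) and Rit2 13.97 ± 0.918 CPM (1.19, adjusted p = 1.05e-12). Phlda3 (1.17), Chst9 (1.06) and Pcdhb18 (0.63) passed the test there too, while Oprd1, Kcnc4, Prss23 and Nxph4 did not. Without DOX, Ddit4l averaged 9.37 ± 1.02 CPM in the miR-23b line and 10.1 ± 1.40 CPM in the control line. Its level in the control line with DOX was thus low beside all of these.

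Transcripts of glycolysis enzymes were lower in the miR-23b line at most steps of the pathway. Of 27 enzymes tested, 3 were higher and 20 lower, with a median log2 fold change of -0.74 beside -0.007 over all genes tested. Here and for the lists below, counts stand beside 25.9% higher and 26.3% lower over all genes tested. Summed over the enzymes, the miR-23b line held 2093 to 2139.9 CPM and the control line 3919 to 4796 CPM, while the miR-137 line with DOX held 4478 to 5033 CPM. Without DOX, 0 enzymes were higher and 3 lower.

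In order of the pathway, Slc2a1, the ubiquitous glucose transporter GLUT1, averaged 31.7 ± 2.18 CPM in the miR-23b line and 66.9 ± 7.61 CPM in the control line (-1.08 ± 0.092). Hexokinase Hk1 averaged 67.5 ± 4.24 CPM in the miR-23b line and 92.9 ± 1.12 CPM in the control line (-0.47 ± 0.046). Gpi1, which makes fructose 6-phosphate, changed by -0.77 ± 0.052. All 3 of these genes of the entry steps were thus lower. Of the phosphofructokinases, Pfkl averaged 158 ± 6.80 CPM in the miR-23b line and 401 ± 47.0 CPM in the control line (-1.35 ± 0.065), whereas the muscle type Pfkm averaged 92.5 ± 1.89 CPM in the miR-23b line and 69.4 ± 4.66 CPM in the control line (0.41 ± 0.041). Aldoa, the aldolase, averaged 182 ± 2.31 CPM in the miR-23b line and 550.5 ± 84.5 CPM in the control line (-1.59 ± 0.083). Tpi1, triosephosphate isomerase, averaged 153 ± 1.81 CPM in the miR-23b line and 503 ± 63.8 CPM in the control line (-1.71 ± 0.08, adjusted p = 4e-20). Pfkm and Pfkl, which catalyse the same step, thus passed the test in opposite directions. Further down, Pgk1 changed by -1.49 ± 0.096, Pgam1 by -1.01 ± 0.089 and the enolase Eno1 by -1.34 ± 0.082. Pkm, pyruvate kinase, averaged 627 ± 11.7 CPM in the miR-23b line and 1007 ± 60.7 CPM in the control line (-0.68 ± 0.039). Among these enzymes the fall was steepest for Ldha, which leads from the pathway to lactate.

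Several enzymes did not fall. Bpgm, which makes 2,3-bisphosphoglycerate, averaged 21.3 ± 0.651 CPM in the miR-23b line and 13.2 ± 1.25 CPM in the control line (0.68 ± 0.078), and Pfkfb4, a regulator of the phosphofructokinase step, averaged 21.9 ± 1.63 CPM in the miR-23b line and 16.04 ± 1.17 CPM in the control line (0.45 ± 0.073). Pklr and Minpp1 did not pass the test (0.033 ± 0.063 and -0.03 ± 0.041). The test was also missed by Eno3 (-0.26 ± 0.11) and Ldhb (-0.18 ± 0.10). Tpi1, Gapdh and Ldha are examples of genes with near-identical copies in the genome, so their values are less certain, and other enzymes may share this limit. In Ldha, Slc16a3, Bnip3, Tpi1, Aldoa, Pgk1, Pfkl and Pdk1, control replicate 1 was the lowest of the 3 control libraries. Leaving out any 1 library left 19 to 21 enzymes lower. The plot of the route from glucose uptake to the citrate cycle shows these genes library by library.

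**Figure D3:**
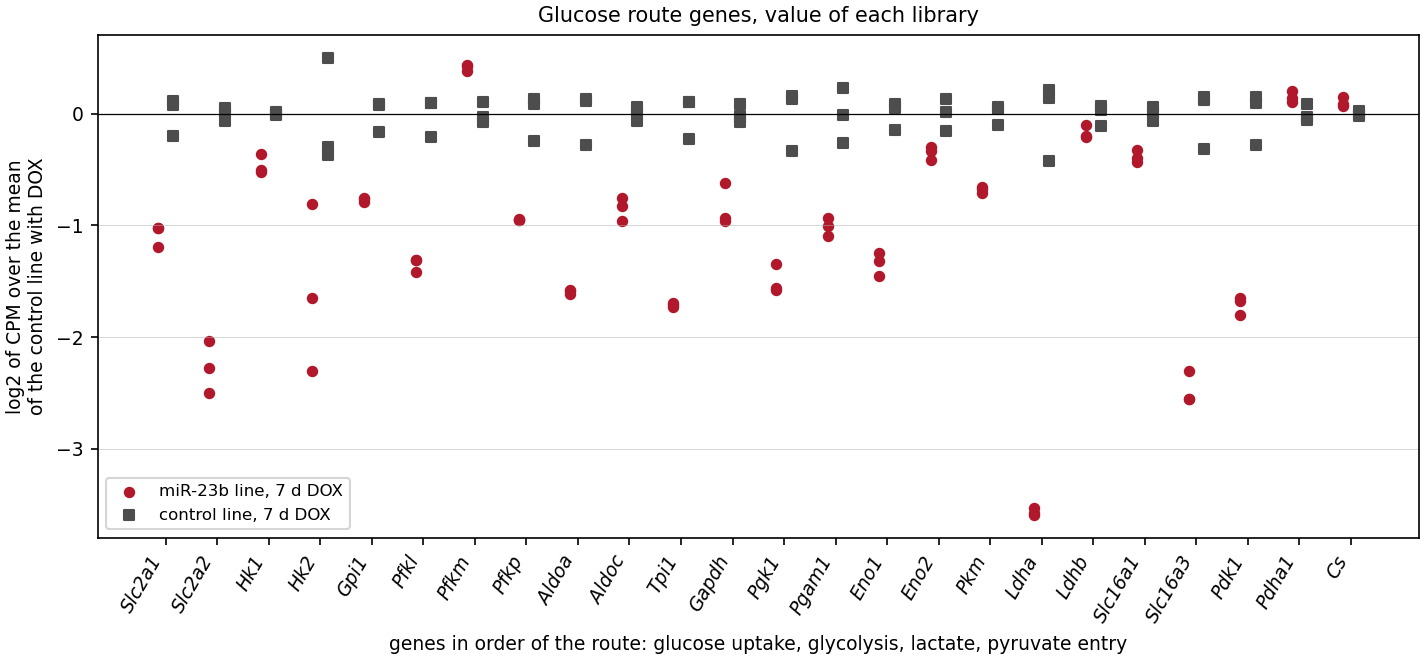
Log2 of CPM over the control line's mean, for each of the 3 miR-23b libraries and 3 control libraries with DOX, with genes ordered from glucose uptake (Slc2a1) to citrate synthase (Cs). Ldha and Tpi1 lie far below the control line's mean in every miR-23b library, while Pfkm lies above it.

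Genes of transport and of the fate of pyruvate were mixed. Of 23 sugar and monocarboxylate transport genes tested, 6 were higher and 11 lower in the miR-23b line. Besides Slc16a3 and Slc2a2, the insulin-responsive transporter Slc2a4 differed, with 11.5 ± 0.177 CPM in the miR-23b line and 5.94 ± 1.10 CPM in the control line (0.95 ± 0.11). Pdk1, the kinase that shuts pyruvate out of the citrate cycle, averaged 32.9 ± 1.85 CPM in the miR-23b line and 108 ± 16.5 CPM in the control line (-1.70 ± 0.10, adjusted p = 3.88e-17), while Pdk3 rose by 0.46 ± 0.059 and Pdk2 by 0.26 ± 0.088. Of 36 citrate cycle and pyruvate entry genes, 14 were higher and 6 lower, with a median of 0.051. Dlat, a subunit of pyruvate dehydrogenase, changed by 0.37 ± 0.048, Cs, citrate synthase, by 0.10 ± 0.03 and the malic enzyme Me3 by 1.04 ± 0.18. Citrate cycle genes thus did not share the fall of the glycolytic enzymes.

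Nuclear-encoded subunits of the respiratory chain mostly did not pass the test, with 12 of 74 higher and 15 lower, and on TPM 26 were higher and 8 lower. Of 9 mitochondrially encoded genes tested, 6 were higher and 2 lower. mt-Co1, a cytochrome oxidase subunit, averaged 8493 ± 291 CPM in the miR-23b line and 6763 ± 153 CPM in the control line (0.33 ± 0.036), and the ribosomal mt-Rnr1 averaged 161 ± 14.7 CPM in the miR-23b line and 216 ± 5.22 CPM in the control line (-0.42 ± 0.041). Glycogen genes were split evenly, 8 higher and 8 lower of 23, with glycogen synthase Gys1 at -1.09 ± 0.071 and the phosphoglucomutase Pgm2l1 at 0.52 ± 0.056. In the pentose phosphate and NADPH group 3 were higher and 9 lower of 16. Its lowest member was Aldh1l1, a folate enzyme, at -1.36 ± 0.27, and its highest was the mitochondrial folate enzyme Mthfd2, at 0.27 ± 0.032.

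Genes known to be induced by low oxygen were mostly lower in the miR-23b line. Of 34 tested, 5 were higher and 25 lower, with a median of -0.38. Leaving out any 1 library left 24 to 25 lower. Their summed level was 1718 to 1742 CPM in the miR-23b line and 2426 to 2668 CPM in the miR-137 line with DOX, against 2276 to 2480.3 CPM in the control line. Without DOX 0 were higher and 3 lower. Besides Ak4, Bnip3, Ankrd37 and Pdk1, the collagen hydroxylase P4ha1 changed by -1.37 ± 0.087, the transcriptional repressor Bhlhe40 by -1.68 ± 0.12 and Adm, the peptide adrenomedullin, by -2.14 ± 0.29. Egln3, an oxygen sensor that marks HIF for decay, changed by -1.02 ± 0.14. Vegfa, the growth factor of blood vessels, averaged 291 ± 20.1 CPM in the miR-23b line and 375 ± 5.40 CPM in the control line (-0.36 ± 0.042). These falls thus ranged from slight to several-fold.

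The oxygen-sensitive transcription factors themselves did not fall at the RNA level. Hif1a averaged 132 ± 1.48 CPM in the miR-23b line and 123 ± 7.12 CPM in the control line and did not pass the test (0.092 ± 0.041, adjusted p = 0.0586). Its partner Arnt rose by 0.18 ± 0.035. Epas1, which encodes HIF-2 alpha, averaged 3.00 ± 0.344 CPM in the miR-23b line and 1.97 ± 0.244 CPM in the control line (0.60 ± 0.18).

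Genes of cholesterol synthesis and uptake were mostly lower with DOX in the miR-23b line, and mostly higher without it. With DOX 5 of 27 were higher and 18 lower, with a median of -0.27. Without DOX 19 were higher and 0 lower, with a median of 0.19. The difference between the 2 contrasts was not tested. With DOX the genes summed to 1616 to 1691 CPM in the miR-23b line and 2054 to 2164 CPM in the miR-137 line with DOX, against 2029 to 2086 CPM in the control line. Insig1, which holds back the sterol-sensing SREBP proteins, averaged 40.4 ± 1.42 CPM in the miR-23b line and 91.2 ± 5.11 CPM in the control line (-1.18 ± 0.051, adjusted p = 4.48e-21). Of the enzymes, Fdps changed by -0.67 ± 0.092 and Cyp51 by -0.39 ± 0.046, and Srebf2, the gene for the master regulator, by -0.32 ± 0.036. The enzyme Tm7sf2 (0.34 ± 0.088) and the SREBP escort Scap (0.29 ± 0.045) were among the 5 that rose.

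Fatty acid genes had 9 higher and 19 lower of 44, with a median of -0.069. Scd2, a stearoyl-CoA desaturase that makes monounsaturated fatty acids, measured 494, 496 and 475 CPM in the miR-23b line, against 1188, 1187 and 1206 CPM in the control line. The Scd2 change was -1.29 ± 0.033 (adjusted p = 1.98e-28, edgeR), and the rule that named Scd2 required that the lines not overlap. Scd1, its paralog, changed by -0.76 ± 0.058. Fasn, fatty acid synthase, changed by -0.53 ± 0.034, Acly, which makes cytosolic acetyl-CoA, by -0.36 ± 0.031 and Srebf1, their regulator, by -0.64 ± 0.039. These genes of synthesis all fell, while Cpt1a, Cpt2 and Acadm of fatty acid oxidation did not pass the test (-0.042 ± 0.051, 0.004 ± 0.056 and 0.042 ± 0.056). Of the nuclear regulators, Pparg, a receptor that drives fat storage, averaged 0.688 ± 0.0835 CPM in the miR-23b line and 1.99 ± 0.143 CPM in the control line (-1.53 ± 0.24). Ppargc1a, a coactivator of mitochondrial genes, averaged 9.14 ± 0.337 CPM in the miR-23b line and 4.94 ± 0.0913 CPM in the control line (0.89 ± 0.11).

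Of 29 transcription factors of beta cells, 6 were higher and 14 lower in the miR-23b line, with a median of -0.099. Rfx6, needed for islet formation, averaged 79.9 ± 2.76 CPM in the miR-23b line and 139.8 ± 7.49 CPM in the control line (-0.81 ± 0.037). Mlxipl, the glucose-sensing factor ChREBP, averaged 384 ± 43.3 CPM in the miR-23b line and 665 ± 22.2 CPM in the control line (-0.80 ± 0.055), and it was also lower without DOX (-0.35 ± 0.055). Pdx1, a master regulator of the beta cell, averaged 242 ± 8.57 CPM in the miR-23b line and 321 ± 14.8 CPM in the control line (-0.41 ± 0.036). Falls were also called for Insm1 (-0.47 ± 0.06), Pax6 (-0.29 ± 0.028) and Neurod1 (-0.25 ± 0.051). Nkx6-1 averaged 257 ± 25.9 CPM in the miR-23b line and 259.7 ± 27.6 CPM in the control line and did not pass the test (adjusted p = 0.876), nor did Foxa2 (0.003 ± 0.055) or Isl1 (-0.044 ± 0.03). Glis3 rose by 0.56 ± 0.038 and St18 by 0.35 ± 0.033.

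The hormone and granule genes moved both ways, with 14 higher and 11 lower of 29. Ins1 averaged 1064 ± 11.9 CPM in the miR-23b line and 2497 ± 91.5 CPM in the control line (-1.23 ± 0.042, adjusted p = 3.41e-24), and Ins2, the more abundant insulin gene here, 6839 ± 316 CPM in the miR-23b line and 7872 ± 241 CPM in the control line (-0.20 ± 0.034). Reads shared by these 2 near-identical genes are not counted, so both values, and Ins1 above all, are less certain. Sytl4, the granule protein granuphilin, averaged 177 ± 3.76 CPM in the miR-23b line and 377 ± 13.7 CPM in the control line (-1.09 ± 0.035), and Npy, neuropeptide Y, 742 ± 42.8 CPM in the miR-23b line and 1249 ± 143 CPM in the control line (-0.75 ± 0.054). Processing enzymes went the other way. Pam, which amidates peptide hormones, averaged 621 ± 17.5 CPM in the miR-23b line and 329.6 ± 6.31 CPM in the control line (0.92 ± 0.033). Pcsk1, a convertase of proinsulin, averaged 673 ± 17.3 CPM in the miR-23b line and 529.8 ± 8.86 CPM in the control line (0.34 ± 0.033). The granins Chgb (0.37 ± 0.038) and Chga (0.15 ± 0.031) rose less. Slc30a8, the granule's zinc transporter, changed by -0.16 ± 0.033, and Iapp did not pass the test (0.061 ± 0.032).

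Channels and receptors were more often lower, 17 against 7 higher of 35. Prlr, the prolactin receptor through which beta cells expand in pregnancy, averaged 8.05 ± 0.433 CPM in the miR-23b line and 27.5 ± 1.77 CPM in the control line (-1.77 ± 0.08, adjusted p = 1.63e-20). Trpm5, a cation channel opened by calcium, changed by -1.43 ± 0.058, and the T-type calcium channel Cacna1h by -1.40 ± 0.06. Ffar1, the fatty acid receptor GPR40, averaged 222 ± 6.49 CPM in the miR-23b line and 353 ± 3.69 CPM in the control line (-0.67 ± 0.03), and the incretin receptor Glp1r changed by -0.50 ± 0.045. Of the KATP channel genes, Abcc8 passed the test (-0.11 ± 0.032), though its libraries overlapped, and Kcnj11 did not (-0.086 ± 0.048). Scn3a, a sodium channel, averaged 4.11 ± 0.262 CPM in the miR-23b line and 1.26 ± 0.244 CPM in the control line (1.71 ± 0.16), and Scn9a rose by 0.67 ± 0.046.

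Regulated exocytosis and synapse genes rose more often than they fell, 31 against 12 of 51, with a median of 0.20. Without DOX 6 were higher and 0 lower. They summed to 7388 to 7646 CPM in the miR-23b line and 7254 to 7294 CPM in the miR-137 line with DOX, against 6946 to 6987 CPM in the control line. Syt4, a synaptotagmin of granule maturation, averaged 284 ± 19.1 CPM in the miR-23b line and 135 ± 6.79 CPM in the control line (1.07 ± 0.042). Nrxn2, a presynaptic adhesion protein, averaged 132 ± 5.85 CPM in the miR-23b line and 76.8 ± 0.2501 CPM in the control line (0.78 ± 0.047), and Snap25, of the fusion complex, rose by 0.66 ± 0.036. Gap43, a growth cone protein, rose by 0.84 ± 0.08. Nefm, a neurofilament, went the other way, at 326 ± 15.3 CPM in the miR-23b line and 622 ± 25.8 CPM in the control line (-0.94 ± 0.047), as did Doc2b (-0.70 ± 0.10). Peptide hormones other than insulin had 3 higher and 7 lower of 15, and 4 of each on TPM. Gip, the incretin, averaged 13.4 ± 0.579 CPM in the miR-23b line and 26.6 ± 2.11 CPM in the control line (-0.99 ± 0.076), and Sct, secretin, 69.7 ± 4.10 CPM in the miR-23b line and 41.7 ± 1.58 CPM in the control line (0.74 ± 0.059). Among genes normally shut off in beta cells, 4 were higher and 6 lower of 16 tested, and Ldha and Mgst1 led the falls. Islet progenitor genes had 5 higher and 8 lower of 21, with Hes1, a NOTCH effector, at -1.15 ± 0.17 and Fev, a factor of endocrine precursors, at 0.83 ± 0.11.

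Genes of proliferation were lower in the miR-23b line, by small amounts in most members. For G1/S and DNA replication 2 were higher and 35 lower of 42, with a median of -0.26. For G2/M and mitosis 0 were higher and 35 lower of 44, with a median of -0.19. Without DOX the counts were 0 higher and 3 lower for G1/S and 0 higher and 2 lower for G2/M. The G1/S genes summed to 6468 to 6649.5 CPM in the miR-23b line and 7118 to 7194 CPM in the miR-137 line with DOX, against 7772 to 7849.7 CPM in the control line. The G2/M genes summed to 12001 to 12122 CPM in the miR-23b line and 12302 to 12471 CPM in the miR-137 line with DOX, against 13643 to 13751 CPM in the control line. The miR-137 line thus also lay below the control line in both sums, and for G2/M it lay closer to the miR-23b line. Mcm10, which helps start DNA replication, averaged 51.3 ± 2.24 CPM in the miR-23b line and 73.7 ± 1.93 CPM in the control line (-0.52 ± 0.038). The mitotic kinase Aurka averaged 113 ± 1.79 CPM in the miR-23b line and 155 ± 1.77 CPM in the control line (-0.45 ± 0.038), and Mki67, the proliferation marker Ki-67, changed by -0.20 ± 0.03. Ccne2 (0.18 ± 0.046) and E2f2 (0.27 ± 0.039) were the G1/S genes that rose.

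Of the p53 targets and CDK inhibitors, 18 were higher and 10 lower of 38, with none called without DOX in either direction. They summed to 3008 to 3080.3 CPM in the miR-23b line and 3002 to 3069 CPM in the miR-137 line with DOX, against 2799.8 to 2971 CPM in the control line, and the miR-23b and miR-137 lines overlapped in this sum. Cdkn1a, which encodes the cell cycle inhibitor p21, averaged 218 ± 6.29 CPM in the miR-23b line and 122 ± 3.07 CPM in the control line (0.83 ± 0.033, adjusted p = 3.05e-22). Eda2r, a death domain receptor, averaged 2.27 ± 0.318 CPM in the miR-23b line and 0.180 ± 0.0499 CPM in the control line (3.62 ± 0.30). Few reads of Eda2r were seen in the control line, so the size of its rise is less certain. The death receptor Tnfrsf10b rose by 1.39 ± 0.18, Zmat3 by 0.81 ± 0.039, Ccng1 by 0.73 ± 0.043 and Mdm2, the ligase that degrades p53, by 0.32 ± 0.032. Many well-known targets, Phlda3 included, were thus higher, but not all. Pmaip1, the death factor NOXA, averaged 1.19 ± 0.0248 CPM in the miR-23b line and 2.62 ± 0.915 CPM in the control line (-1.13 ± 0.23), Cdkn1b, or p27, changed by -0.37 ± 0.036, and Bax did not pass the test (0.028 ± 0.046). Trp53 itself averaged 91.5 ± 3.79 CPM in the miR-23b line and 114 ± 1.14 CPM in the control line (-0.32 ± 0.036). In βTC3 cells p53 is bound by the large T antigen of the Rip-Tag2 transgene.

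Interferon response and antigen presentation genes had the lowest median of the function lists after glycolysis. Of 45 tested, 2 were higher and 33 lower, with a median of -0.56, against 0 higher and 8 lower without DOX. They summed to 1103 to 1143 CPM in the miR-23b line and 1276 to 1311 CPM in the miR-137 line with DOX, against 1423 to 1439.7 CPM in the control line, with the miR-137 line in between. Gbp3, a guanylate-binding protein, changed by -1.94 ± 0.25, Xaf1 by -1.75 ± 0.13, and Ifih1, the sensor MDA5 of double-stranded RNA, by -1.19 ± 0.10. Isg15, a ubiquitin-like modifier, changed by -0.95 ± 0.15 and Irf7, a transcription factor of the response, by -0.65 ± 0.12. H2-K1, a class I heavy chain that presents peptides, averaged 74.0 ± 0.544 CPM in the miR-23b line and 114 ± 4.78 CPM in the control line (-0.62 ± 0.043), and the immunoproteasome subunit Psmb9 changed by -0.77 ± 0.082. Sensors, effectors and presentation genes were thus all among the falls. The signalling factor Stat2 (0.004 ± 0.053, adjusted p = 0.959) did not pass the test, and Ifit2 rose by 0.33 ± 0.08.

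TGF-beta, activin and BMP signalling genes were more often higher, 17 against 5 lower of 37. The inhibitors Smad6 (1.73 ± 0.22), Bambi (0.72 ± 0.047) and Smad7 (0.68 ± 0.095) rose. Smad3, which carries the signal to the nucleus, changed by -0.63 ± 0.12 but did not pass on TPM. Acvr1c, the type I receptor ALK7 for activins and nodal-related ligands, fell most in this list (ENSMUSG00000026834, chromosome 2, 58267453 to 58357895, minus strand) and measured 64.1, 59.8 and 61.2 CPM in the miR-23b line, against 173, 171 and 178 CPM in the control line. The libraries of each line lay close together (-1.50 ± 0.037, adjusted p = 7.75e-29), and the miR-137 line with DOX held 174 ± 4.28 CPM. NOTCH pathway genes were called no more often than all genes tested (45.7% beside 52.2%), with 8 higher and 8 lower of 35. Notch1 averaged 55.3 ± 1.76 CPM in the miR-23b line and 108 ± 3.18 CPM in the control line (-0.96 ± 0.041, adjusted p = 2.88e-21), and its ligand Dll1 changed by -1.02 ± 0.20, while Notch3 rose by 1.03 ± 0.28.

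Among the epithelial genes called most were lower, and among the mesenchymal genes called most were higher, many at low levels. Of 20 epithelial genes tested, 1 was higher, 10 were lower and 9 did not pass, with a median of -0.26. Of 19 mesenchymal genes tested, 9 were higher, 3 were lower and 7 did not pass, with a median of only 0.094. A further 15 epithelial and 19 mesenchymal genes on the lists were not tested. Cdh1, E-cadherin, averaged 2.27 ± 0.0759 CPM in the miR-23b line and 5.23 ± 0.591 CPM in the control line (-1.21 ± 0.15). Vim, vimentin, averaged 1.91 ± 0.108 CPM in the miR-23b line and 0.513 ± 0.0735 CPM in the control line (1.88 ± 0.24). Zeb1 (0.094 ± 0.035) and Cdh2, N-cadherin (0.10 ± 0.031), rose by little.

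Clustered protocadherins, neuronal adhesion proteins encoded in arrays on 1 chromosome, were more often higher. Of 47 tested, 21 were higher and 2 lower, with a median of 0.28, and on TPM 44 were higher and 1 lower. Pcdhb19 averaged 10.8 ± 0.913 CPM in the miR-23b line and 3.99 ± 0.474 CPM in the control line (1.44 ± 0.10), Pcdhb20 rose by 1.33 ± 0.098 and Pcdhb17 by 1.25 ± 0.093, while Pcdhb1 changed by -0.89 ± 0.14. Reads shared between these similar genes are not counted, so single values are less certain. The plot of shares per list sets the lists side by side.

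**Figure D4:**
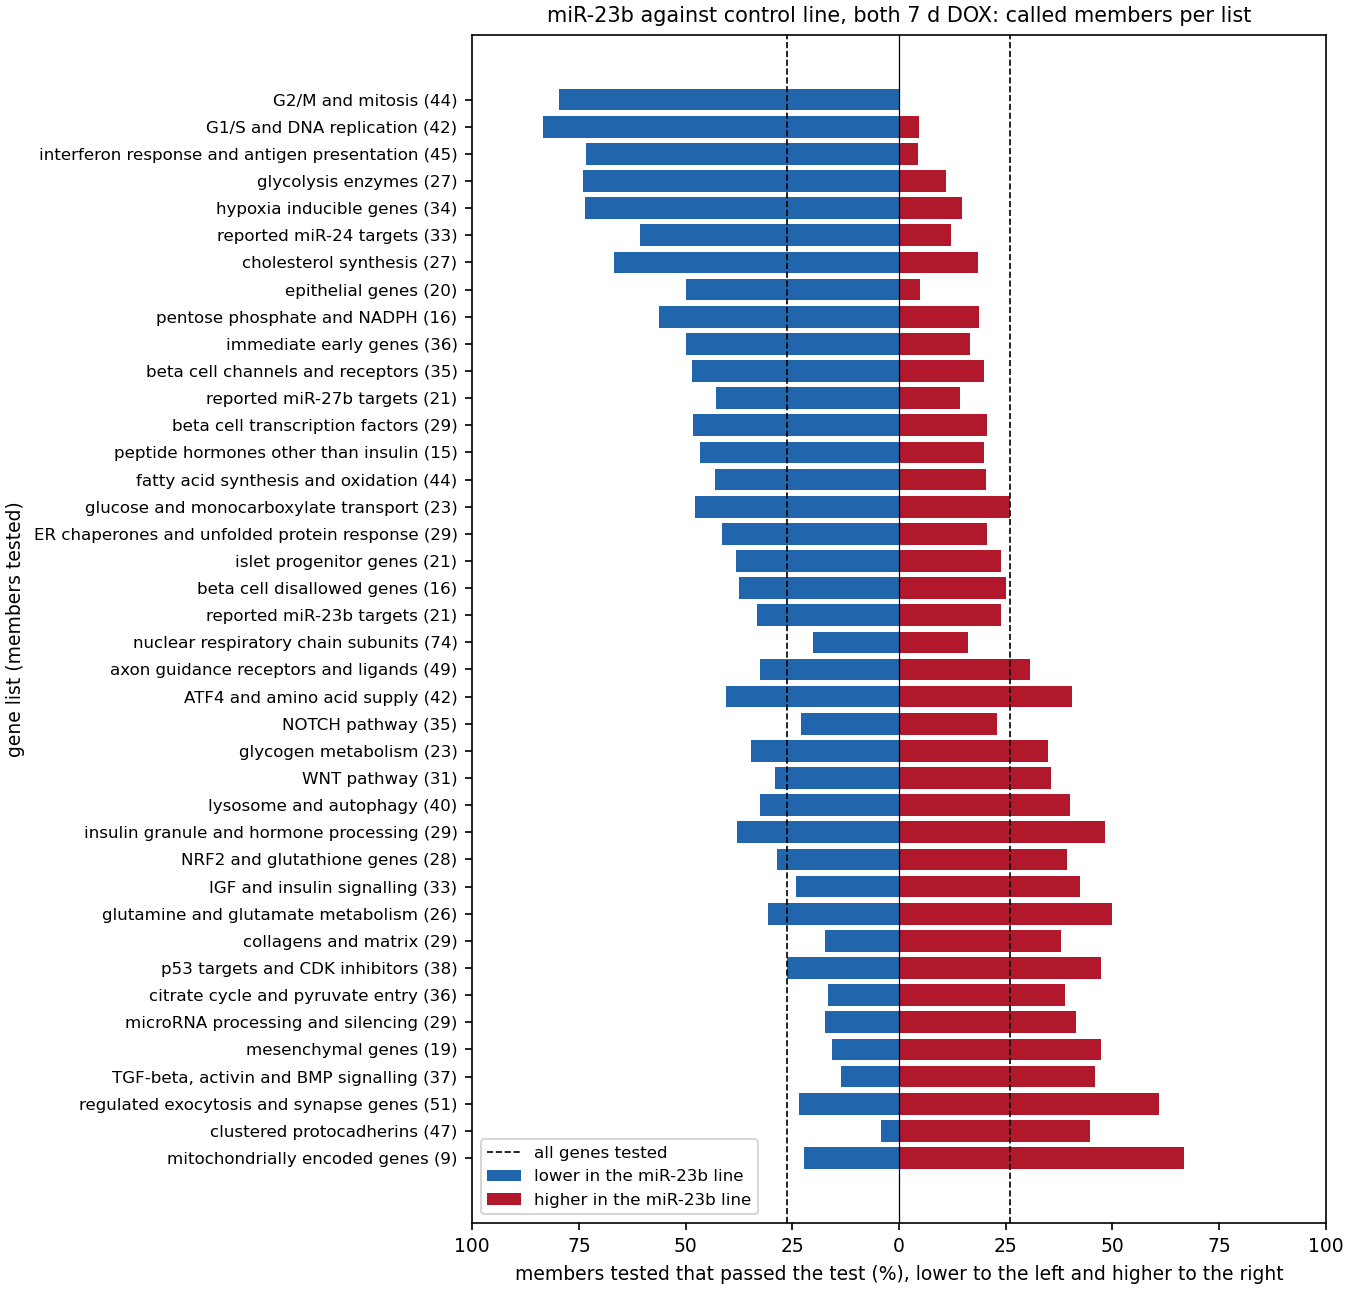
Share of tested members lower (bars to the left) and higher (bars to the right) in the miR-23b line than in the control line with DOX, in percent, for 40 function lists; dashed lines give the shares over all genes tested, 26.3% lower and 25.9% higher. G1/S, G2/M, glycolysis, hypoxia and interferon lists reach farthest to the left, and exocytosis genes reach farthest to the right among the larger lists.

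Genes that earlier work in other cells reported as targets of the 3 miRNAs were read next, as lists written from general knowledge. These lists were chosen with earlier results of these data known, so their shares lend no independent support. Of reported miR-24 targets 20 were lower and 4 higher of 33 tested, of miR-27b targets 9 and 3 of 21, and of miR-23b targets 7 and 5 of 21. On TPM the miR-23b targets had 5 lower and 7 higher. Against a background of 26.3% lower among all genes, the share lower was 60.6% for miR-24, 42.9% for miR-27b and 33.3% for miR-23b. H2afx, the histone variant that marks DNA breaks, averaged 72.3 ± 10.5 CPM in the miR-23b line and 156 ± 15.4 CPM in the control line (-1.11 ± 0.099), and Cdk4, the G1 kinase, 223 ± 6.86 CPM in the miR-23b line and 310.4 ± 6.19 CPM in the control line (-0.48 ± 0.033). Men1, the menin tumour suppressor of endocrine tumours, averaged 101 ± 1.28 CPM in the miR-23b line and 138 ± 1.06 CPM in the control line (-0.45 ± 0.031). Reported miR-24 targets thus included known promoters and suppressors of growth among the falls, and Insig1 and Notch1, given above, are also on that list. Among reported miR-23b targets, Fzd7, a WNT receptor, changed by -0.83 ± 0.072, while Ccng1 and Ppargc1a, given above, were higher.

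Matches to the seeds were searched in the annotated 3′ UTRs of 12979 tested genes (GENCODE M21, GRCm38), on the transcript's strand. An 8mer pairs with bases 2 to 8 and has an A opposite base 1, and reads AATGTGAA for miR-23, ACTGTGAA for miR-27 and CTGAGCCA for miR-24. The 7-base forms are the 8mer without its last A (7mer-m8) or without its first base (7mer-A1), and were counted apart from it. A match is a description of letters, not a proven site. The miR-23 8mer was in 847 genes (6.53%), the miR-27 8mer in 779 (6.00%), the miR-24 8mer in 1030 (7.94%) and the miR-137 8mer AGCAATAA in 536 (4.13%).

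Genes with 8mers had medians slightly below those of other genes in the miR-23b line, given here as counts and medians with no test over the sets. The share lower was 37.7% with a miR-23 8mer, 34.1% with a miR-27 8mer and 33.8% with a miR-24 8mer, beside 27.7% over all genes with a UTR and 26.9% with a miR-137 8mer. Median log2 fold changes were -0.049, -0.051 and -0.035 for the 3 families, against 0.003 over all genes with a UTR and 0.026 with a miR-137 8mer. Without DOX the medians of the 3 families were 0.011, 0.015 and 0.006. The shift grew with the number of 8mers of the 3 families in the UTR. In 10639 genes with none, 26.3% were lower and the median was 0.013. With 1 8mer (1900 genes) 33.6% were lower at a median of -0.028, with 2 (347 genes) 37.2% at -0.063, and with 3 or more (93 genes) 41.9% at -0.109. On TPM the medians of the 3 families lay above 0, at 0.0121, 0.0111 and 0.0306, but below the median of 0.0521 over all genes tested there.

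UTR length moved with both site number and fold change, so genes were also read within 4 groups of equal size by UTR length, bounded at 408, 1016 and 2078 bases. Over all genes the median rose with length, through -0.048, -0.011, 0.023 and 0.053. Genes with an 8mer of the 3 families had medians of -0.215 (113 genes), -0.111 (303), -0.059 (632) and 0.002 (1292). Genes with no site of any form had -0.039, 0.014, 0.064 and 0.116. In each group, genes with an 8mer thus lay below genes with no site, by the most in the shortest UTRs. Genes with a miR-137 8mer had -0.117 (27 genes), -0.016 (78), 0.027 (136) and 0.043 (295), close to all genes except in the shortest group.

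**Figure D5:**
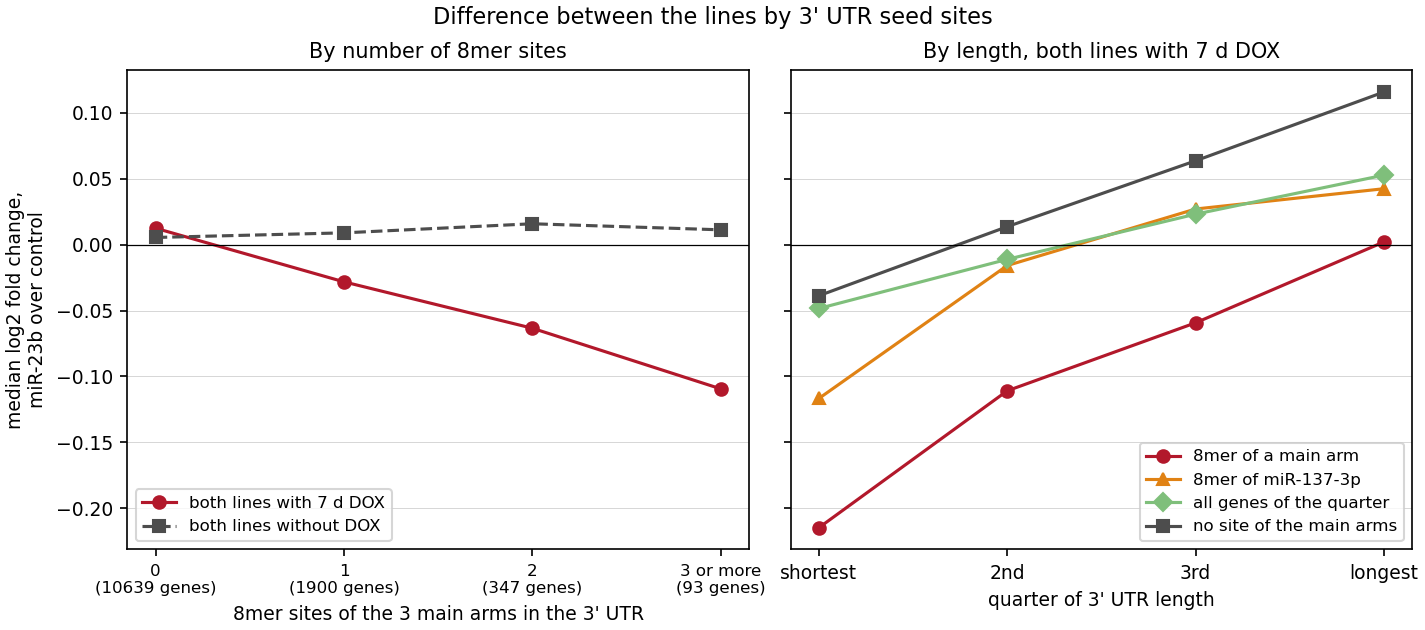
Left, median log2 fold change of the miR-23b line over the control line by number of 8mers of the 3 families in the 3′ UTR, with DOX and without. Right, the same median with DOX by UTR length in 4 groups of equal size for genes with such an 8mer, with a miR-137 8mer, with no site and for all genes; genes with an 8mer lie lowest in every length group, from -0.215 to 0.002.

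Most of the largest changes carried no 8mer. None of the 12 largest falls had one, and Ldha, Bnip3, Slc2a2, Mgl2, Mgst1, Prelid2, Ankrd37, Mif and Blnk held no site of any form. Over all tested genes with a UTR, 82.0% had no 8mer of the 3 families and 49.5% no site of any form. With 12 genes, the absence of 8mers is thus not far from that of genes at large. Ak4 held 1 miR-27 7mer-m8 and 1 miR-24 7mer-A1, and Slc16a3 and Oas2 each held 1 miR-24 7mer-m8. Of the lists, 2 of 27 glycolysis enzymes, 6 of 34 hypoxia genes, 7 of 45 interferon genes and 2 of 27 cholesterol genes had an 8mer of the 3 families. Over all tested genes with a UTR the share was 18.03%. The hypoxia genes (17.6%) and interferon genes (15.6%) were near it, and the glycolysis and cholesterol genes (7.41% each) below it. In lists that held more 8mers, the members with an 8mer went either way. Of 46 clustered protocadherins 35 (76.1%) had an 8mer, and of these 13 were higher and 1 lower. Matches were counted per gene, and UTR sequence shared within these arrays was not examined, so the 35 are not read as separate cases. Of 49 axon guidance genes 17 (34.7%) had one, with 2 higher and 7 lower. Of 21 reported miR-23b targets 14 (66.7%) had one, with 3 higher and 5 lower. Exocytosis and synapse genes were near the share over all genes, with 10 of 51 (19.6%), of which 8 were higher and 2 lower. Letters absent from an annotated UTR say nothing more about the gene.

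The genes that fell most among those with an 8mer are named for each family. Acvr1c, in a UTR of 7465 bases, held 4 miR-27, 1 miR-23 and 1 miR-24 8mers, and its values are given above. Gpd2, the mitochondrial glycerol phosphate dehydrogenase that carries cytosolic electrons to the respiratory chain, measured 119.8, 118 and 119.8 CPM in the miR-23b line, against 325, 327 and 332 CPM in the control line. Its libraries lay within a narrow range on each side (-1.46 ± 0.036, adjusted p = 8.02e-29), and its UTR held 1 miR-27 8mer. Uap1l1 averaged 34.9 ± 0.496 CPM in the miR-23b line and 87.6 ± 1.13 CPM in the control line (-1.33 ± 0.063). With Prlr and Hhip, a binding protein of hedgehog ligands (-1.299 ± 0.10), these led the genes with a miR-27 8mer. For miR-23, besides Acvr1c and Scd2, Lpar1, a lysophosphatidic acid receptor, averaged 4.49 ± 0.170 CPM in the miR-23b line and 10.6 ± 1.02 CPM in the control line (-1.25 ± 0.091). Dpp4, the protease that inactivates incretins, averaged 28.0 ± 1.57 CPM in the miR-23b line and 64.0 ± 2.82 CPM in the control line (-1.198 ± 0.051), and Stk32a, a kinase, 28.4 ± 0.794 CPM in the miR-23b line and 67.0 ± 0.925 CPM in the control line (-1.24 ± 0.049). For miR-24, besides Acvr1c, the list held Parp14, an ADP-ribosyltransferase of the interferon response, at 5.40 ± 0.722 CPM in the miR-23b line and 18.5 ± 0.446 CPM in the control line (-1.79 ± 0.10). Itpr2, a calcium channel of the endoplasmic reticulum, averaged 2.64 ± 0.477 CPM in the miR-23b line and 7.08 ± 0.412 CPM in the control line (-1.45 ± 0.13), Phex, a membrane peptidase, changed by -1.76 ± 0.14 and Enpp3, an ectonucleotidase, by -1.55 ± 0.10. In the miR-137 line with DOX, against the same control libraries, Prlr (-0.76), Hhip (-0.65), Phex (-0.68), Itpr2 (-0.34), Enpp3 (-0.33), Parp14 (-0.23) and Gpd2 (-0.095) were also lower (adjusted p below 0.05, edgeR), while Dpp4 (0.50) and Lpar1 (0.43) were higher. Acvr1c, Scd2, Stk32a and Uap1l1 did not pass the test there, with differences between -0.082 and -0.002.

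The 8mers of 12 of these 13 genes are shown with 8 flanking bases on each side, 5′ to 3′ on the transcript's strand in GRCm38, and the 8mer in capitals. They are printed so that the 6 matches of Acvr1c can be compared with the other genes shown, which each hold a single 8mer of the 3 families. Stk32a, whose sequence is not shown, held 1 miR-23 and 1 miR-27 8mer.
Acvr1c miR-27 site (chr2:58274274-58274297, minus strand): tctcaaacACTGTGAAatggccca
Acvr1c miR-27 site (chr2:58274208-58274231, minus strand): caactagcACTGTGAAgtttgctg
Acvr1c miR-27 site (chr2:58269610-58269633, minus strand): gaacaaagACTGTGAAatacatat
Acvr1c miR-27 site (chr2:58267948-58267971, minus strand): acataaggACTGTGAAaaaaaaat
Acvr1c miR-24 site (chr2:58274324-58274347, minus strand): aaaaccacCTGAGCCAttactcct
Acvr1c miR-23 site (chr2:58274529-58274552, minus strand): atatttaaAATGTGAActactgta
Gpd2 miR-27 site (chr2:57369192-57369215, plus strand): cagatgtcACTGTGAAatcttttt
Prlr miR-27 site (chr15:10335282-10335305, plus strand): ctgttgaaACTGTGAAtgttgtga
Uap1l1 miR-27 site (chr2:25360171-25360194, minus strand): gcaagaggACTGTGAAtcaagtat
Hhip miR-27 site (chr8:79970229-79970252, minus strand): attgatagACTGTGAActtctcat
Scd2 miR-23 site (chr19:44305551-44305574, plus strand): cttaaacaAATGTGAAaaataaaa
Lpar1 miR-23 site (chr4:58436017-58436040, minus strand): acttttaaAATGTGAAatgtcctc
Dpp4 miR-23 site (chr2:62330505-62330528, minus strand): atggtgatAATGTGAAtaaattca
Parp14 miR-24 site (chr16:35834293-35834316, minus strand): cagcaccaCTGAGCCAatggggct
Itpr2 miR-24 site (chr6:146111531-146111554, minus strand): ccaagatgCTGAGCCAtttagctc
Phex miR-24 site (chrX:157165340-157165363, minus strand): ttcaagaaCTGAGCCAaatacttt
Enpp3 miR-24 site (chr10:24773568-24773591, minus strand): tgtgtgtaCTGAGCCAcagtgctc
Of the 4 miR-27 matches of Acvr1c, 2 lie close together, at bases 629 and 695 of its UTR. This upstream stretch also holds its miR-24 and miR-23 matches. The other 2 lie farther down and apart from each other, at bases 5293 and 6955. Other bases around the 8mer differed from gene to gene.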

How the data were processed

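Groups and replicate numbers came from the labels. The authors deposited raw read counts per gene for 46517 entries, 46005 with a symbol in GENCODE M21, and a second table of TPM, recognised by column sums of 999999.26 to 1000001.26. Per the submitters' processing notes, the tools were STAR 2.4.0g, RSEM 1.2.19, HTSeq 0.6.1, featureCounts and cutadapt 1.3 and the builds GRCm38 and mm10, but no source says which tool made which table. Reads aligned to more than 1 place were listed apart and belong to no gene, so genes with near-identical copies are less certain.

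From the deposited counts, genes were kept by filterByExpr (minimum count 10, total 15) and scaled by TMM. The 24 libraries were fitted together with 8 group means in edgeR 4.0.16 (R 4.3.3), with a common coefficient of variation of 3.00% and 16 residual degrees of freedom. The miR-23b line was tested against the control line, with DOX and separately without, and the miR-137 line against the control line with DOX, by the quasi-likelihood F test, adjusted by Benjamini-Hochberg over the 14866 genes. The fit was checked on counts simulated from its own estimates with few genes changed, so the check does not cover differences as wide as those seen here. CPM use TMM-scaled library sizes, except at the miRNA loci (unadjusted). SE is the log2 fold change over the square root of F, and is too small where a group has few counts, as for Ak4, Mgl2, Phlda3 and the miRNA loci. Ratios at the loci carry exact intervals of counting error. Seed matches were searched with Python 3.11.15 in the annotated 3′ UTR of each gene's principal transcript.

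Named genes are the 12 largest rises and falls past the test with at least 5 CPM in the higher group, no overlap and a symbol that is no clone or predicted gene name (3 of the rises are loci of the cluster), up to 5 falls per miRNA family with an 8mer, and up to 4 called members per list and direction with other members as examples. The 46 lists were written from general knowledge, and 1550 of 1551 members matched. The members and lists were chosen with earlier results of these data known, so they lend no independent support. Deviations of the same-numbered libraries of the 2 lines were only weakly correlated, so no pairing was used. Fits with a replicate block are given below. Alternatives were other scalings, filters, DESeq2 1.42.0, limma 3.58.1 on log2(TPM + 0.5), the 6 libraries alone, a replicate block and leaving out each library. A stricter adjusted p below 0.01 was also tried. Some genes that meet the naming rule are not reported here.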

Additional observations from a re-analysis of the deposited data

Results flagged for a closer look

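Slc2a2, Scd2 and Hhip were flagged because every miR-23b library with DOX lay below the control line with DOX, while every miR-23b library without DOX lay above the control line without DOX. How many of all genes tested share this pattern was not counted. Over all genes tested, 196 passed in opposite directions with and without DOX, so such a reversal is not particular to these genes. Slc2a2 and Hhip did not pass the test without DOX. The separation with DOX was required by the rule that named these genes. The log2 fold change of Slc2a2 was -2.281 with DOX and 0.245 without (adjusted p = 0.142, edgeR). Scd2 had -1.29 with DOX and 0.17 without (adjusted p = 0.000648, edgeR), so it passed in opposite directions. Hhip had -1.299 with DOX and 0.258 without (adjusted p = 0.0589, edgeR). These differences between the 2 contrasts were not tested.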

How the results depend on the processing

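The count of genes passing the test with DOX at adjusted p below 0.05 stayed within 7022 (DESeq2) to 7878 under the alternatives, against 7764. At the stricter adjusted p below 0.01 it was 6242. The share of calls that were higher was 49.5% in the counts and 63.826% with limma on TPM. The number of genes passing without DOX fell from 947 to 413 on TPM, one of 4 alternatives for that count chosen after seeing the data. Among genes with any seed match, 29.8% were lower. This share was 27.968% with DESeq2, 19.973% on TPM, 22.152% with no filter on low counts, 28.421% with the 6 libraries alone, 31.691% with upper quartile scaling and 27.202% to 27.984% leaving out 1 library. Their median was 0.0596 on TPM, against -0.0016. Their excess over genes with no match, 4.195 percentage points, stayed between 3.07 and 5.52. Over all genes with a UTR, 27.7% were lower. Genes with a match were also more often higher, 29.4% beside 27.2% with no match. Their UTRs were longer, with a median of 1816 bases against 493. Causes were not tested. Of 304 genes named or listed as examples, 4459 of 4552 values kept direction and call, 91 lost the call, 1 gained it and 1 reversed, Pcdhac1, at 0.635 on TPM against -0.6. For the 39 genes named by size, locus or site, 577 of 578 held. Counts per list moved over 1.5 times in 45 of 1380 cases, 15 of them on TPM.

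With a replicate block 7878 genes passed in the fit of 24 libraries and 7526 in the 6 libraries alone, where 7296 passed without the block. Without DOX 1127 genes passed with the block, against 947. Correlations between same-numbered libraries were 0.064, 0.0127 and 0.0494, and those between differently numbered ones lay between -0.0744 and 0.0326. All were small, so the numbers are not read as pairs, though each block raised the count. Depth limits the cluster's loci in the control line, with 1 to 4 reads each.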

Other observations

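Further gene groups were read with the same test, beside 25.9% higher and 26.3% lower over all genes tested. Amino acid supply and its regulator ATF4 had 17 higher and 17 lower of 42 members with DOX, and 16 higher and 0 lower without it. The pseudokinase Trib3 changed by -0.67 ± 0.071 with DOX, and the amino acid transporter Slc7a5 averaged 449 ± 11.2 CPM in the miR-23b line and 332 ± 9.26 CPM in the control line (0.44 ± 0.033). Both passed the test (edgeR). Chaperones of the endoplasmic reticulum had 6 higher and 12 lower of 29, but 11 higher and 9 lower on TPM. The chaperone Hspa5 did not pass (0.015 ± 0.038), and Atf6 rose by 0.34 ± 0.034. Immediate early genes had 6 higher and 18 lower of 36. Egr1 averaged 209 ± 26.1 CPM in the miR-23b line and 413 ± 44.5 CPM in the control line (-0.99 ± 0.072), and 662 ± 52.8 CPM in the miR-137 line with DOX. Dusp6, a phosphatase that turns off ERK, rose by 1.48 ± 0.21.

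Glutamine genes had 13 higher and 8 lower of 26, led by Gad2, which makes GABA, at 6.24 ± 0.446 CPM in the miR-23b line and 2.06 ± 0.467 CPM in the control line (1.59 ± 0.14). The glutamate transporter Slc1a2 changed by -1.13 ± 0.12. IGF and insulin signalling had 14 higher and 8 lower of 33, with the binding protein Igfbp2 at 3.14 ± 0.209 CPM in the miR-23b line and 10.8 ± 0.0534 CPM in the control line (-1.77 ± 0.12) and the receptor adaptor Grb10 at 1.298 ± 0.20. WNT genes had 11 higher and 9 lower of 31, but 10 and 11 with upper quartile scaling. Axon guidance genes had 15 higher and 16 lower of 49, and 18 and 10 on TPM, with Slit2 at -1.197 ± 0.25 and Efna3 at 1.35 ± 0.19. Collagen and matrix genes had 11 higher and 5 lower of 29, with Col11a2 at 51.8 ± 2.35 CPM in the miR-23b line and 18.4 ± 0.654 CPM in the control line (1.49 ± 0.058) and the laminin Lamb1 at -1.35 ± 0.20. Lysosome and autophagy genes had 16 higher and 13 lower of 40, with the acid lipase Lipa at 55.0 ± 1.63 CPM in the miR-23b line and 26.8 ± 1.39 CPM in the control line (1.03 ± 0.049). Redox genes of the NRF2 group had 11 higher and 8 lower of 28, with Txnip, the glucose-responsive thioredoxin inhibitor, at 53.3 ± 2.14 CPM in the miR-23b line and 105 ± 5.02 CPM in the control line (-0.98 ± 0.056). In the miRNA machinery 12 were higher and 5 lower of 29. Ago2 averaged 280.1 ± 12.4 CPM in the miR-23b line and 214 ± 16.4 CPM in the control line (0.39 ± 0.047), Dicer1 rose by 0.28 ± 0.034, and Dcp2, which removes the cap of messages, averaged 153 ± 6.39 CPM in the miR-23b line and 235 ± 5.85 CPM in the control line (-0.62 ± 0.034).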
